A study of Drosophila melanogaster with 2 samples.

Results

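The 10 core genes of the Hedgehog pathway of Drosophila melanogaster were read in peak lists of CG13287, a protein mapped by chromatin immunoprecipitation and sequencing. They are the ligand gene hh, the ligand release gene disp, the co-receptor genes ihog and boi, the receptor gene ptc, and the transducer genes smo, cos, fu, Su(fu) and ci. All 10 matched the annotation by symbol, and they stand among 13968 protein-coding genes on the chromosome arms. A gene was counted when the summit of a peak lay within 500 bp of one of its transcription start sites (TSSs). The study held 2 biological replicates of 1 group, whole embryos aged 6 to 24 h from flies with a CG13287-eGFP fusion inserted as a transgene, and no other genotype, stage or treatment was analysed here. The fusion protein was pulled down with an antibody against GFP from chromatin sonicated to 200 to 800 bp, and the labels do not give the promoter that drives it. Because whole embryos were used, cells that make the ligand, cells that receive it and all other cells are pooled in each value.

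Hedgehog is a secreted morphogen that patterns each segment of the embryo: it is made in posterior cells of the segment and received by their neighbours. Without ligand the receptor Ptc holds the membrane protein Smo inactive. A complex with the kinesin-like protein Cos and the kinase Fu then promotes the cleavage of the transcription factor Ci to a repressor. Su(fu) binds Ci and restrains it. Ligand bound by Ptc with the co-receptors Ihog and Boi frees Smo, full-length Ci is kept, and target genes such as ptc itself are switched on.

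The bases at the summits are shown first for the strongest promoter summits of the 10 genes, those at smo and boi, because they hold the only 2 matches to TATCGATA among the members. This word is the core of the DNA replication-related element, known as the binding site of the factor Dref. Capitals mark the motifs, each stretch reads 5′ to 3′ on the strand of the named gene, and all sequence is the dm6 (Release 6) reference.
smo: gtTATCGATActccgcacccAGTGTGACCg
boi: tgcatcactaatcTATCGATAatgttggtc
The smo stretch is chr2L:277272-277301 and its second run of capitals reads GGTCACACT on the other strand, the core of the motif bound by M1BP. The boi stretch is chrX:2447869-2447898.

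The next stretches, from chr3R:23141954-23142054, chr2L:6948779-6948878, chr3R:5856504-5856604 and chr3R:12691584-12691684, show summits of the ligand, of a co-receptor, of the release gene and of a transducer without TATCGATA or GGTCACACT. The base at the summit is the capital letter. The last was taken from the replicate 2 list.
hh: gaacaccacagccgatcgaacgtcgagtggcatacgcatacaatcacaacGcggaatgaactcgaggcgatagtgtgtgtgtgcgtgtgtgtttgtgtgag
ihog: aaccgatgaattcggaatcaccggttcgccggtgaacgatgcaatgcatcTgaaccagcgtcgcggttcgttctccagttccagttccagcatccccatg
disp: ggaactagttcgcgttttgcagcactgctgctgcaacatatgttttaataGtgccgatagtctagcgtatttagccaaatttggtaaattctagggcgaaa
Su(fu): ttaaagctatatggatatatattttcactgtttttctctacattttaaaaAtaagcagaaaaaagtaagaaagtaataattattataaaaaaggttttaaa

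The 50 bp on either side of 14 promoter summits of the 10 members were read on both strands for the 6 words named here. TATCGATA lay in 2 windows of 2 members, beginning 18 bp before the summit of smo and 2 bp after that of boi. It stood in 12.7% of 5159 promoter summits of the conservative list and in 5.19% of 19630 windows of the same length upstream of TSSs. The shorter word ATCGAT, which lies inside TATCGATA, occurred in the same 2 windows, against 26.2% of promoter summits and 12.8% of upstream windows. GGTCACACT was found at smo alone, beginning at the summit base, against 4.01% and 1.95%. GAGAG, the core of GAGA factor sites, had 5 matches at ptc, some of them overlapping, against 13.6% of summits and 15.3% of upstream windows. CAGCTG, an E-box, and TATAAA, the TATA box word, were in none of the 14 windows, against 10.7% and 12.3% of promoter summits. For Su(fu) the window read was that of the optimal list, and the stretch shown for it from replicate 2, which is not among the 14, does hold TATAAA. A match describes these letters and is not evidence of a site in use.

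The conservative list, made from both replicates and filtered by the irreproducible discovery rate (IDR, a measure of how well ranks recur), held 5955 peaks. In it 7 of the 10 Hedgehog genes had a promoter summit, hh, disp, ihog, boi, ptc, smo and fu. All protein-coding genes had one in 39.8% of cases, or 5565 of 13968. The optimal list, the longer filtered list of both replicates with 7026 peaks on the arms, added Su(fu) to give 8 of 10, against 43.7% of all genes. The replicate 1 list, with 3997 peaks on the arms, held 4 of 10, ihog, boi, ptc and smo, against 30.3%. The replicate 2 list, with 7340 peaks, held all 10, against 44.9%. The same 4 genes were in the lists of both replicates, against 29.7% of all genes, and no test was made of any of these differences. Other readings of the conservative list gave 6 Hedgehog genes within 200 bp of a TSS (all genes 35.0%), 7 within 1000 bp (42.7%), 7 whose peak interval covered a TSS (34.8%) and 8 with a summit in the gene or within 1000 bp of it (48.2%). Among peaks above the median signal of the list 3 Hedgehog genes remained, ihog, boi and smo, against 26.5% of all genes.

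**Figure D1:**
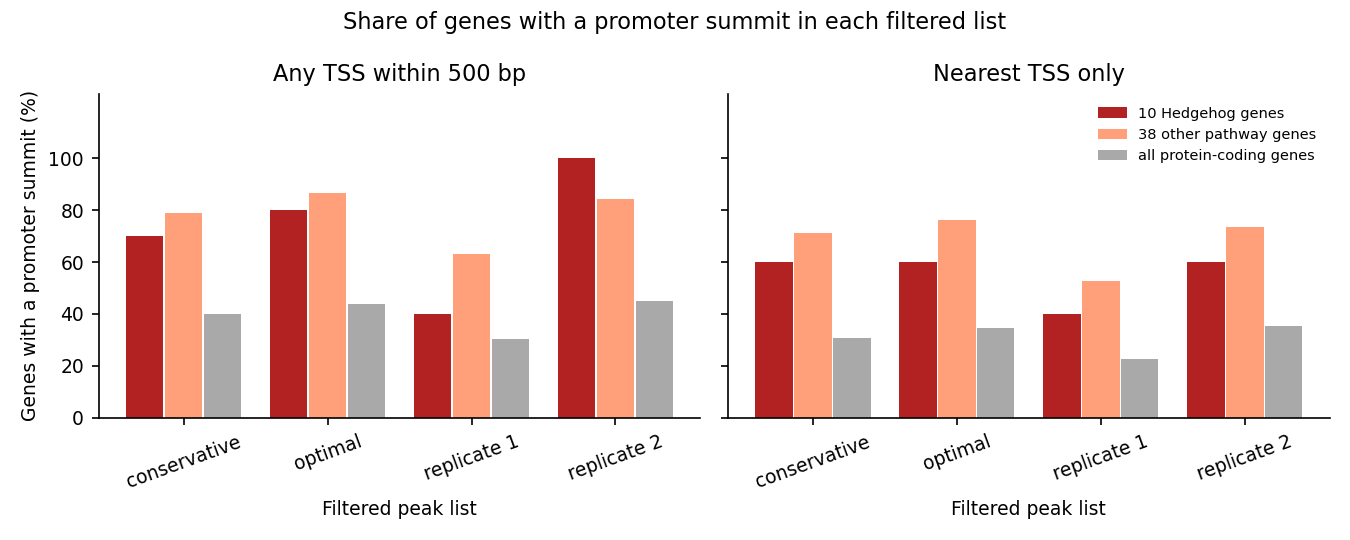
Percent of genes with a summit within 500 bp of a TSS (vertical axis) in the 4 filtered peak lists, for the 10 Hedgehog genes, 38 other genes of the pathway and all 13968 protein-coding genes; the left panel counts a summit for every TSS in reach and the right panel only for the nearest. In the left panel the red bar of the Hedgehog genes stands at 70.0% in the conservative list and at 40.0% in the replicate 1 list and is full in the replicate 2 list. In the right panel it stands at 60.0% in the conservative, optimal and replicate 2 lists and at 40.0% in the replicate 1 list. The grey bars stay between 22.8% and 44.9% across both panels.

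In strength the members spread widely. The signal is the value the authors' peak caller gave each peak, with rank 1 the strongest of its list. Over the 7 genes with a summit in the conservative list the median of the strongest promoter signal was 168, beside 255 over all 5565 genes with one. As a position in the list, the median member stood above 46.5% of peaks and the median gene above 65.2%. In the optimal list the medians were 142 for 8 Hedgehog genes and 227 for all genes, in replicate 1 they were 166 for 4 and 140, and in replicate 2 they were 82.1 for 10 and 141. Signals of the lists from both replicates may not be on the scale of those from a single replicate, and the members counted differ between lists, so these medians are not compared across lists. The medians also depended on how summits were assigned. Counted for the nearest TSS alone, the members had a median of 210 and all genes 226 in the conservative list, 210 and 200 in the optimal list, 136 and 129 in replicate 1, and 128 and 127 in replicate 2. Under that assignment the median of the members was below that of all genes in the conservative list alone, and in replicate 1 it was above under both assignments.

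The ligand gene hh (FBgn0004644, chr3R:23128169-23141906, minus strand) had a promoter peak that was weak among those kept by the IDR filter. In the conservative list the peak at chr3R:23141729-23142278 had a signal of 78.0 and ranked 5482, above 7.95% of peaks. In the longer conservative ranked list, which precedes the filter, the same peak stood above 74.0%. Its summit lay in intergenic sequence, 98 bp upstream of the only annotated TSS, with no TSS of another gene within 500 bp. The scaled IDR score, which is capped at 1000, was 831 for hh, where the lowest score kept in each filtered list was 830. Just outside that limit, the optimal ranked list gave ci a score of 818, and this entry was not in the optimal list.

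By replicate, hh had a signal of 60.3 in the replicate 2 list, at rank 5957 and 133 bp upstream of the TSS. The replicate 1 list had no hh summit. In the longer ranked list of replicate 1, which precedes the filter, hh stood at a signal of 28.7, rank 7341 of 24422 and a score of 348, 36 bp upstream of the TSS. The optimal list kept the conservative peak of hh with a score of 946 at rank 6258. The ligand promoter was thus kept in 3 of the 4 filtered lists and stood in all 4 ranked lists.

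The release gene disp (FBgn0029088, chr3R:5849697-5856311, minus strand) encodes Dispatched, which frees lipid-modified Hedgehog from the cells that make it. Its conservative peak at chr3R:5856279-5856828 had a signal of 117 and ranked 4471, with the summit 243 bp upstream of the TSS. The summit was only 31 bp upstream of the TSS of ECSIT, a gene on the opposite strand whose TSS is 274 bp from that of disp. In the replicate 2 list disp had 72.1 at rank 5152, and in replicate 1 it stood in the ranked list alone, at 40.6 with a score of 640. Like hh, disp was therefore kept in the lists of replicate 2 and of both replicates together but not in that of replicate 1.

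The co-receptor gene ihog (FBgn0031872, chr2L:6945464-6948808, minus strand) encodes a membrane protein with immunoglobulin and fibronectin domains that binds the ligand. Its conservative peak at chr2L:6948680-6949000 had a signal of 252 at rank 2088, 20 bp upstream of the TSS. The replicate 1 list gave 101.4 at rank 2068, 5 bp upstream, and the replicate 2 list 153 at rank 2182, 59 bp upstream. In lists of these different lengths ihog stood above 64.9% of peaks in the conservative list, 48.3% in replicate 1 and 70.3% in replicate 2. No other gene had a TSS within 500 bp.

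The second co-receptor gene, boi (FBgn0040388, chrX:2444167-2470043, minus strand), has TSSs at position 2447892, used by 1 of its 5 transcripts, and at 2470043, used by the other 4. The strong peak was at the TSS of the single transcript. It covered chrX:2447625-2448260 with a signal of 603 at rank 753, and the summit was 5 bp downstream of that TSS, inside annotated 5′ leaders of boi and of z. The gene z, which encodes the DNA-binding protein zeste, starts on the opposite strand with a TSS 64 bp from that of boi. The signal was 230 at rank 872 in replicate 1 and 382 at rank 613 in replicate 2.

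At the TSS shared by the other 4 boi transcripts the conservative signal was lower, 119 at rank 4435 with a summit 45 bp downstream. A further conservative summit 157 bp upstream had 39.9, and it was not in the optimal list or in any list of a single replicate. The replicate 2 list gave 76.4 at a summit 19 bp downstream of this TSS. Replicate 1 had an entry of 47.0 in its ranked list alone, 35 bp downstream and with a score of 189. At the strong TSS an additional summit with a signal of 242 lay nearer to z than to boi. The value of boi therefore depends on which of its start sites is read, and the stronger one is shared with z.

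The receptor gene ptc (FBgn0003892, chr2R:8649649-8665223, plus strand) encodes the transmembrane protein that binds Hedgehog and is itself a target of the pathway. Its conservative peak at chr2R:8649448-8649655 had a signal of 168 at rank 3185, 68 bp upstream of the TSS in intergenic sequence. Replicate 1 gave 55.3 at rank 3316, 67 bp upstream, and replicate 2 gave 111 at rank 3225, 85 bp upstream. In the list of replicate 1 this was above 17.1% of peaks and in that of replicate 2 above 56.1%. The summit of ptc moved by 18 bp between replicates, and no TSS of another gene lay within 500 bp.

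Among the transducers, smo (FBgn0003444, chr2L:277582-282167, plus strand) had the highest signal of all 10 genes in the conservative list. It encodes Smoothened, the membrane protein that passes the signal into the cell. The peak at chr2L:276978-277622 had a signal of 632 at rank 695, with 240 at rank 813 in replicate 1 and 368 at rank 672 in replicate 2. The summit was 290 bp upstream of the smo TSS and 80 bp from a TSS of CG17078, a gene on the opposite strand, within the annotated 5′ leader of CG17078. A further summit lay 89 bp upstream of the smo TSS and nearest to it, with 309 at rank 1699, 170 in replicate 1 and 145 in replicate 2. Both summits at smo were therefore in the lists of both replicates, and the one nearest to smo was the weaker.

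The gene fu (FBgn0001079, chrX:18657755-18661204, plus strand) encodes the kinase Fused. Its conservative peak at chrX:18657645-18658194 had a signal of 75.2 at rank 5508 and a score of 911, and its summit was 165 bp downstream of the TSS, in the coding sequence of fu. The replicate 2 list gave 60.5 at rank 5937, 107 bp downstream, and replicate 1 had 33.7 with a score of 712 in the ranked list alone. Just outside the 500 bp limit, a conservative summit 526 bp upstream of fu had a signal of 86.3 and lay 5 bp from the TSS of CG6659. Of the 7 genes with a conservative summit, fu ranked last and was with boi 1 of 2 whose strongest summit lay downstream of the TSS.

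Su(fu) (FBgn0005355, chr3R:12689873-12691468, minus strand) encodes a negative regulator that binds Ci. It had no summit in the conservative list. The optimal list gave a peak at chr3R:12691416-12691965 with a signal of 100.5, rank 5376 and a score of 986, 223 bp upstream of the TSS. The same entry had a score of 183 in the conservative ranked list. The summit was 52 bp from the TSS of Arp1, on the opposite strand and 275 bp from that of Su(fu). Replicate 2 gave 79.0 at rank 4759 and 166 bp upstream. Replicate 1 had 29.2 with a score of 167 in its ranked list alone, at a summit 106 bp downstream. That ranked list also held a weaker summit 224 bp upstream, with 17.8 and a score of 350. The call at Su(fu) was thus made in 2 of the 4 filtered lists.

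The remaining transducers, cos and ci, had a promoter summit in the filtered list of replicate 2 only. For cos (FBgn0000352, chr2R:7382176-7387115, minus strand), the gene of the kinesin-like scaffold Costal-2, the peak at chr2R:7387066-7387555 had a signal of 47.4, rank 6722 and a score of 837. Its summit lay 196 bp upstream of the cos TSS and 13 bp from that of Dhx15 on the opposite strand. The ranked lists of both replicates together gave 43.6, with a score of 347 in the conservative one. That of replicate 1 gave 19.4 with a score of 53, at another summit 112 bp downstream of the cos TSS and nearest to it. The signal of cos was the lowest of the 9 Hedgehog genes in the ranked list of replicate 1. At 47.4 it was also the lowest of the 10 in that of replicate 2.

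For ci (FBgn0004859, chr4:47710-57041, minus strand), the gene of the zinc-finger transcription factor Cubitus interruptus on the small chromosome 4, the peak at chr4:56198-56687 had a signal of 85.3 at rank 4393 and a score of 1000 in replicate 2. Its summit was 112 bp upstream of the TSS at position 56331, in the 5′ leader of a longer ci transcript, and 54 bp from the TSS of the antisense RNA gene asRNA:CR43957. The optimal ranked list gave 98.0. Neither the conservative ranked list nor that of replicate 1 had any ci summit within 500 bp. The strength of ci in replicate 2, above hh, disp, cos, fu and Su(fu), therefore had no counterpart in replicate 1.

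**Figure D2:**
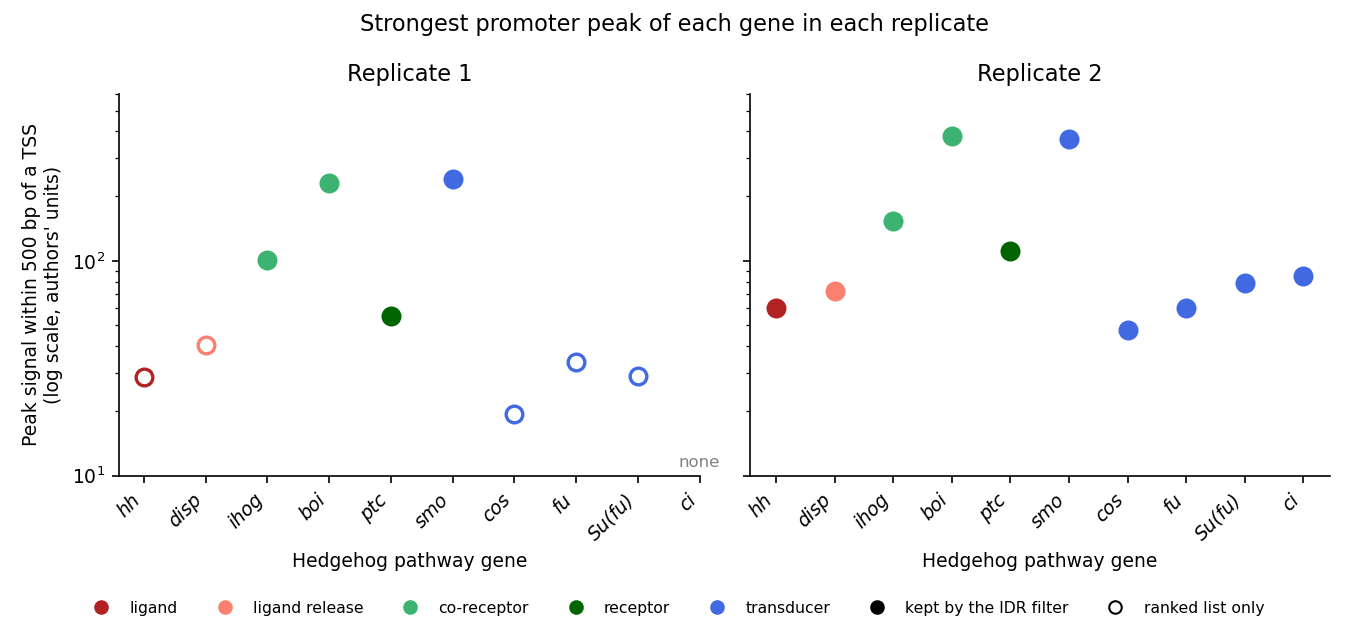
Signal of the strongest peak with a summit within 500 bp of a TSS (vertical axis, log scale, in the units of the peak caller) for each Hedgehog gene in replicate 1 and replicate 2; filled points are in the filtered list and open points in the ranked list alone. In both panels smo, boi, ihog and ptc lie highest, hh is at 28.7 and 60.3, and ci has no point in replicate 1.

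In the ranked lists, which hold more of the members, 9 of 10 Hedgehog genes had a promoter summit in the conservative one, against 60.7% of all genes. The optimal one held 10 against 62.8%, that of replicate 1 held 9 against 58.0% and that of replicate 2 held 10 against 66.1%. In each replicate the 4 strongest were smo, boi, ihog and ptc. Neighbours in this order did not all keep it: smo was above boi in replicate 1, with 240 and 230, and below it in replicate 2, with 368 and 382. Likewise hh and fu had 28.7 and 33.7 in replicate 1 and 60.3 and 60.5 in replicate 2, but 78.0 and 75.2 in the conservative list.

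The ligand was set against its transducers within each list, since 1 ligand gene and 5 transducer genes allow no test over replicates. In the conservative list hh had 78.0, and 2 of the 5 transducers had a summit (40.0%, against 39.8% of all genes). They were smo with 632 and fu with 75.2, so 1 of 5 was stronger than hh. In the optimal list 3 of 5 had a summit (60.0%, against 43.7%), and 2 of 5 were above hh, smo and Su(fu). In the replicate 1 list hh had no summit, and of the transducers smo alone had one. In the replicate 2 list hh had 60.3, and all 5 transducers were present, against 44.9% of all genes, with a median of 79.0. Of these 4, all but cos, exceeded hh. The replicate 2 summits of cos, Su(fu) and ci, and the stronger one of smo, were nearer to a TSS of another gene. Counted for the nearest TSS alone, smo with 145 and fu with 60.5 were left there beside hh. Under that assignment Su(fu) also dropped out of the optimal list. In the ranked list of replicate 1 hh had 28.7, and smo, fu and Su(fu) were above it at 240, 33.7 and 29.2, with cos at 19.4. The signal of smo exceeded that of hh in every list that held hh, and that of cos was below hh wherever both had a summit.

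Several of these promoters are shared with a gene on the opposite strand, so the gene a peak belongs to was not fixed by distance alone. Of the 7 genes in the conservative list, disp, boi and smo had a TSS of another gene within 500 bp of their strongest summit, or 3 of 7, against 56.0% of all genes with a summit. The other gene's TSS was the nearer at disp and smo, against 26.8% of all genes. With cos, Su(fu) and ci, whose summits lay near the TSSs of Dhx15, Arp1 and asRNA:CR43957, the replicate 2 list had 5 of 10 Hedgehog genes with another TSS nearer, against 24.7%. When a summit was counted for the nearest TSS alone, a reading chosen after seeing the data, 6 Hedgehog genes remained in the conservative list, against 30.8% of all genes. The same reading gave 6 in the optimal list against 34.4%, 4 in replicate 1 against 22.8% and 6 in replicate 2 against 35.3%. The 6 genes in replicate 2 were hh, ihog, boi, ptc, smo and fu, so that disp, cos, Su(fu) and ci rested on summits nearer to another start site.

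**Figure D3:**
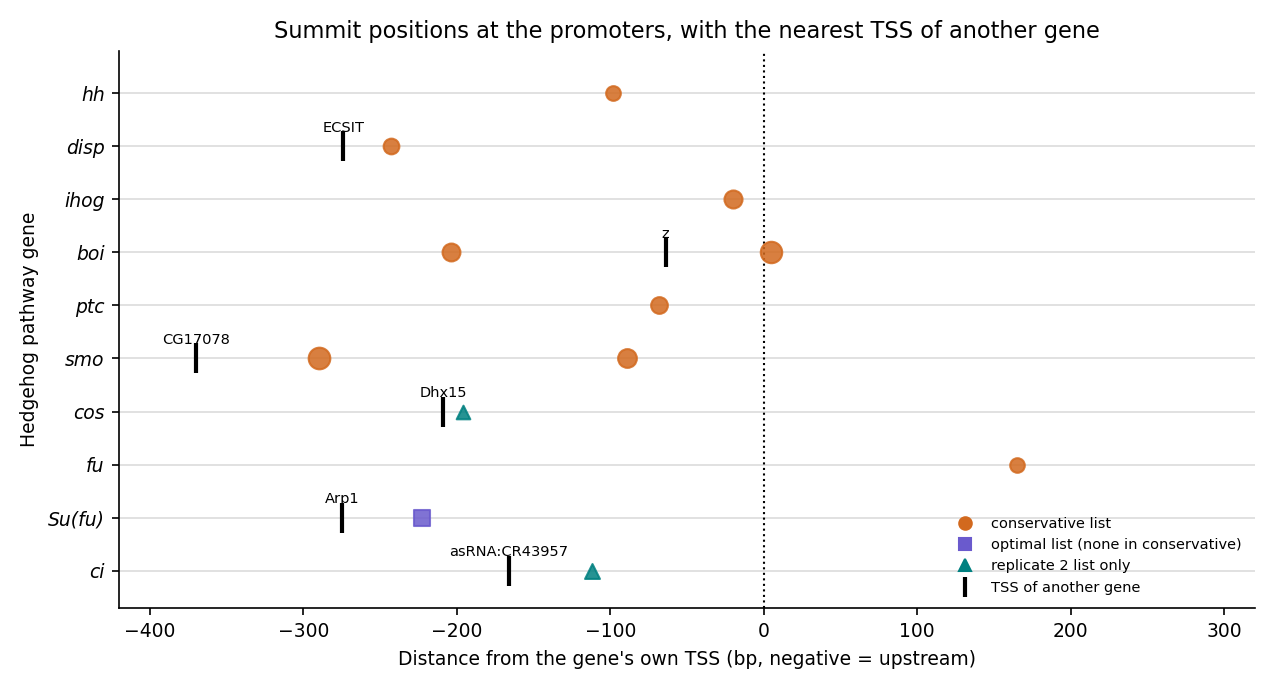
Position of promoter summits relative to the gene's own TSS (horizontal axis, bp, negative is upstream) for each Hedgehog gene, in the strictest list that had one; for boi the TSS with the strong peak is drawn, point size grows with signal and black ticks mark the nearest TSS of another gene. The points of disp, cos, Su(fu), ci the stronger of smo and the weaker of boi lie closer to a black tick than to the dotted line at 0, while hh, ihog, ptc and fu have no tick.

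Most summits were upstream of the start. In the conservative list 5 of the 7 strongest member summits were upstream of the TSS, and the middle position, that of ptc, was 68 bp upstream, beside a median of 60 bp upstream over all genes with a summit. Between the ranked lists of the replicates the strongest summits moved least at boi, by 11 bp, ptc, by 18 bp, and smo, by 30 bp. They moved by 54 bp at ihog, 60 bp at fu, 89 bp at disp and 97 bp at hh. At Su(fu) and cos they differed by 272 and 308 bp, crossing the TSS. For Su(fu) the ranked list of replicate 1 also held a weaker summit upstream, at 224 bp from the TSS, with 17.8. The median over 9 Hedgehog genes was 60 bp (quartiles 30 and 97), beside 31 bp (12 and 80) over 7697 genes with a summit in both ranked lists.

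Other genes of the pathway were read by role. Of 38 such genes 30 had a conservative promoter summit (78.9%, against 39.8% of all genes), with 33 in the optimal list (all genes 43.7%), 24 in replicate 1 (30.3%) and 32 in replicate 2 (44.9%). Counted for the nearest TSS alone, 27 had one in the conservative list (71.1%, against 30.8%). The median signal was 168 over the core genes with a summit, 198 over these 30 and 255 over all genes. The order of core and other pathway genes turned under other readings, with 210 and 158 for the nearest TSS alone and 166 and 98.3 in replicate 1. The counts by role are from the conservative list, where 39.8% of all genes had a summit.

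Of 3 genes that make or carry the ligand 1 had a summit, rasp, the acyltransferase that adds palmitate to Hedgehog, with 153. The secreted factor gene shf and the lipoprotein gene apolpp had none. All 6 genes for heparan sulfate enzymes and glypicans, which shape the spread of the ligand, had one, led by the glypican gene dlp with 611, the sulfotransferase gene sfl with 540 and the exostosin gene botv with 310. Of the kinases that act on Ci or Smo 4 of 6 had one. CkIalpha had 1299 at rank 63, Pka-C1 had 166 and sgg 153, while dco and Gprk2 were absent from the conservative list and present in the optimal one with 52.0 and 132.

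The ubiquitin system, which trims Ci and removes Smo and Ptc, had 9 of 10, led by the ligase gene Smurf with 685, SkpA with 516 and slmb, the F-box gene of Ci processing, with 376. The deubiquitinase gene Usp8 had none. Of the phosphatase genes 3 of 4 had one, Pp4-19C with 511, tws with 195 and mts with 149, and wdb had none. Among other partners Bin1, a corepressor gene, had 1181 at rank 97 and the arrestin gene krz 127, and the coactivator gene nej had no summit in the conservative list and one in the optimal list, with 95.7. Of target genes and regulators 5 of 6 had one, with 158 at sr, 146 at wg and 144 at rho, and kn had none. The peaks of CkIalpha and Bin1 were above those of every core gene. Among the genes named here, the summits of sfl, Pka-C1, slmb, Smurf, mts and Bin1 were nearer to a TSS of another gene, that of Bin1 lying 55 bp from its own TSS and 47 bp from that of sra.

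**Figure D4:**
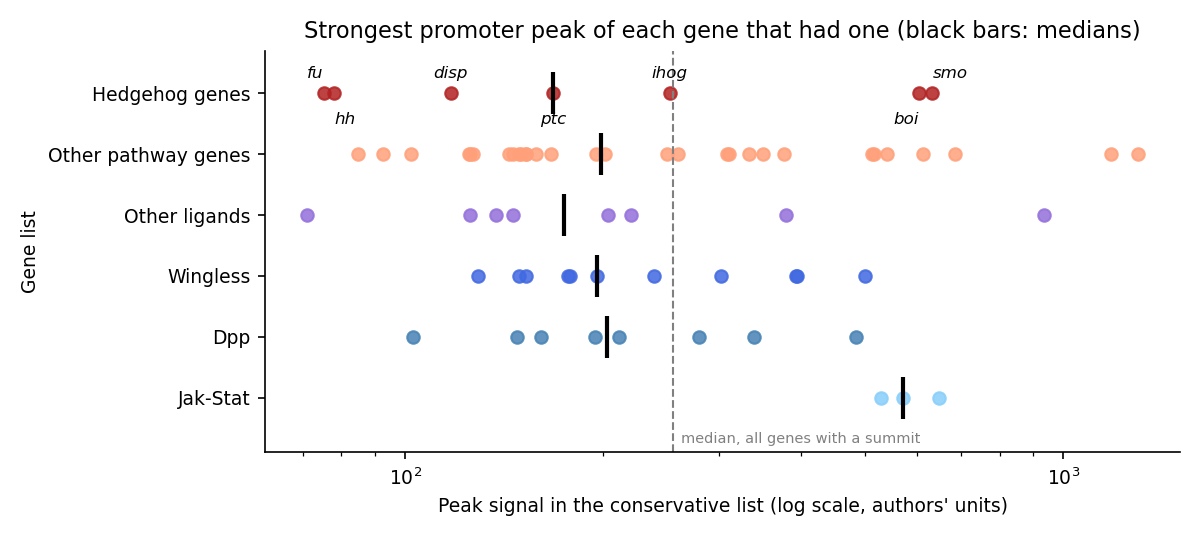
Signal of the strongest conservative promoter peak of each gene that had one (horizontal axis, log scale, in the units of the peak caller), by gene list; black bars are medians and the dashed line is the median of 255 over all genes with a summit. The Hedgehog genes run from fu at 75.2 to smo at 632 with a median of 168, against medians of 174 for ligands of other pathways and 571 for the Jak-Stat genes.

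For scale, hh was set beside ligand genes of other pathways, of which 8 of 14 had a conservative summit, against 39.8% of all genes. Above the 78.0 of hh lay Krn with 935, gbb with 380, vn with 221, spi with 203, wg with 146, Wnt5 with 137 and dpp with 126, and below it upd2 with 70.9. The other 6 ligand genes had no conservative summit to set beside hh, and upd2 had none in the optimal list. The 10 Hedgehog genes, with 7 called and a median of 168, stood beside receptors and transducers of the Wingless pathway with 11 of 12 and 196, of the Dpp pathway with 8 of 9 and 203, and of the Jak-Stat pathway with 3 of 3 and 571, against 39.8% and 255 for all genes. The strongest of these were pan with 500 and pygo with 394, tkv with 485 and sax with 339, and dome with 647 and Stat92E with 571, beside smo with 632 and boi with 603. The summits of gbb, pygo and sax were nearer to a TSS of another gene, and that of Krn lay 148 bp from its own TSS and 148 bp from that of Ndfip. The lists overlap in wg, dpp and sgg, and no difference between them was tested.

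The annotated gene CG13287, whose product is fused to eGFP in the transgene, had 0 peaks within 5000 bp in the 4 filtered lists and 4 or 5 in the ranked lists. The files give no read counts, so the depth behind each value is unknown, and the number of peaks on the arms was 3997 in replicate 1 and 7340 in replicate 2. Members missing from the replicate 1 list were hh, disp, cos, fu, Su(fu) and ci, and what part the length of that list had in this was not tested.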

How the data were processed

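Peaks of CG13287-eGFP from 2 replicates of whole embryos were analysed. The authors deposited peak lists on dm6, 4 filtered by IDR and 4 ranked lists that precede the filter. The deposited signal is the peak caller's value, whose relation to depth and control is not stated, and the deposited score is a scaled IDR score capped at 1000. The aligner and the peak caller are not stated in the labels or files. Ages came from the sample description, because the age field's number is too large for embryos. A further 4 signal columns in the ranked lists of both replicates could not be tied to a sample and were not used.

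A summit is the start of its peak plus the offset in the file, and 5 lay outside their interval in the conservative list. They were assigned to TSSs of the Ensembl BDGP6.54 annotation (release 115), and sequence was read from the Release 6 genome (RefSeq). Peaks off the chromosome arms were left out. Python 3.11.15, pandas 2.3.3 and numpy 2.4.6 were used, and the assignment was tested on simulated data. The conservative list was the main one. Members and gene lists were chosen with earlier results of these data known, and 2 list symbols were replaced by their current names (Delta, Bin1). Named were all 10 members, the 3 strongest and all absent genes per role of the wider pathway, the 2 strongest per comparison list, ligands with a summit and genes with a TSS within 500 bp of a member's summit. Without a second group no test was made: values are given per list, and counts stand beside those over all protein-coding genes. Alternatives were other lists, each replicate alone, other distances, a stricter signal, intervals over TSSs, gene bodies and the nearest TSS. With 2 replicates the values are given singly, and an SD serves only as a scale for shifts of position between settings.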

Additional observations from a re-analysis of the deposited data

How the results depend on the processing

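Read in the replicate lists alone, the count of Hedgehog genes with a promoter summit ranged from 4 (replicate 1) to 10 (replicate 2) beside 7 in the conservative list, that of other pathway genes from 24 to 32 and that of all genes from 4239 to 6266. The ligands of other pathways ranged from 5 to 11, and the Dpp genes from 5 to 8. Transducers stronger than hh numbered 4 in replicate 2, where smo and fu alone were left when summits were counted for the nearest TSS. The replicate 1 list and the peaks above the median signal allow no such count, because hh had no summit there. With peaks above the median signal of the list alone the counts were 3 Hedgehog genes, 16 other pathway genes, 3699 of all genes, 4 ligands, 6 Wingless genes and 5 Dpp genes. The conservative ranked list gave 8472 genes in all. Transducers stronger than hh were 2 in the optimal list, in the conservative ranked list and within 1000 bp. They were 0 over gene bodies with 1000 bp on either side. Within 1000 bp, fu was given the summit 526 bp upstream and 5 bp from the TSS of CG6659, with 86.3. Over gene bodies, hh was given the summit 146 bp past its 3′ end and 42 bp from the TSS of CG31457. That summit had 750, above the 632 of smo, so this reading does not compare the hh promoter with the transducers. The other counts stayed within 1.5 times of the conservative values. Of 54 alternative summit positions of single members 41 came from the same summit and could not move, 5 moved by less than 1 SD of the positions in the replicates' ranked lists and 8 by more. The settings with a single replicate give the same positions that enter this SD, so for them it is not an independent measure and nothing is concluded from the split. List percentiles changed with the length of the list and are not judged by an SD. No paired analysis was possible because the study has 1 group. Depth is unknown, so a summit missing from a list is not shown to be absent from the genome.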

Other observations

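Beyond the promoters, stronger peaks stood near several Hedgehog genes at the start sites of neighbours. In the conservative list the hh promoter had 78.0, while a peak with a signal of 750 at rank 464 lay 146 bp past the 3′ end of hh and 42 bp from the TSS of CG31457, with 355 in replicate 1 and 403 in replicate 2. Past the 3′ end of boi, a summit 37 bp from the TSS of tko, a mitochondrial ribosomal protein gene, had 879. The ihog promoter had 252, and a summit 1503 bp upstream of it and 104 bp from the TSS of Gas41 had 641. For ci, the only conservative peak within 5000 bp of the gene was 39 bp from the TSS of PlexB, a gene for an axon guidance receptor, with 296.

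Summits within 5000 bp that were nearest to a Hedgehog TSS but outside the 500 bp limit were few. The optimal list had 1 in an intron of ci, 1476 bp downstream of the TSS, with 90.9, and 1 in intergenic sequence 1988 bp upstream of ptc, with 83.6. The replicate 2 list had 1 with 73.7, 2166 bp upstream of ci in an intron of asRNA:CR43957. None of these 3 was in the conservative list.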
